A study of Homo sapiens with 6 samples.

Results

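The MHC class I antigen presentation genes described here are the 9 rows of a gene expression table whose symbol is HLA-B, HLA-C, HLA-E, HLA-F, B2M, TAP1, TAP2, PSMB8 or PSMB9, out of 58825 genes in all. Each symbol had 1 row, and all 9 passed the filter on low counts that left 19393 genes for testing. The table came from RNA sequencing of MHCC97H, an established human hepatocellular carcinoma line, in 3 libraries labelled shPTBP1 and 3 labelled shControl. The libraries labelled shPTBP1 carry the genotype PTBP1 Knockdown, a short hairpin RNA (shRNA) against the splicing regulator PTBP1, and those labelled shControl carry the genotype WT with a negative control shRNA. The labels give neither the hairpin behind each library nor whether the libraries came from separate cultures, so the p-values below measure the spread between these libraries, which may be technical.

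MHC class I molecules show peptides from inside the cell to CD8 T cells and natural killer cells. Proteasomes cut proteins into peptides, the TAP1 and TAP2 transporter carries the peptides into the endoplasmic reticulum, and a loading complex places them on a heavy chain bound to the light chain beta-2 microglobulin, encoded by B2M. Interferons raise most genes of this pathway, and tumor cells can lower them and so escape T cells.

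To check the labels, PTBP1 was examined first. It had 17.3, 16.9 and 18.0 FPKM (fragments per kilobase of transcript per 1e6 fragments, as deposited) in shPTBP1 1, 2 and 3, against 21.2, 16.4 and 27.4 FPKM in shControl 1, 2 and 3. The groups overlapped, with a log2 fold change of -0.29 (SE 0.18, adjusted p = 0.953 by the edgeR quasi-likelihood test), so the directions reported here compare the libraries by their labels only. The deposited counts summed to between 68704509 and 85317970 per library. The libraries numbered 3 stood apart from the others in blood-cell transcripts. The summed FPKM of 9 red-cell markers was 656, 594 and 0.88 in shPTBP1 1, 2 and 3, against 989.6, 629 and 1.09 in shControl 1, 2 and 3, and that of 22 leukocyte markers was 18.7, 16.9 and 0.40, against 28.7, 17.9 and 0.39. Of 10 hepatocyte markers, 6 (ALB, AFP, APOB, TTR, TF and FGB) were listed at 0 in all 6 libraries, and the sum of the 10 was at most 0.24 FPKM, so the defining markers of liver cells were at or near 0. FPKM are rounded, and a listed 0 can stand for a few counts, as for TF with up to 11 counts. In bulk RNA, fewer cells of a type and less RNA per cell cannot be told apart.

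The class I genes shared part of their order across the libraries. shControl 3 was the highest of the 6 libraries for 9 of 9 genes, a pattern held by 23.4% of all genes tested. shControl 1 and shControl 2 were at the other end for 6 of the 9. Measured as TMM-normalized counts per 1e6 (CPM), HLA-B, HLA-E, HLA-F, B2M, TAP1 and PSMB8 were higher in all 3 shPTBP1 libraries than in shControl 1 and 2, an order held by 19.7% of all genes. For PSMB8 this order rested on a near tie, since shPTBP1 2 and shControl 1 were both listed at 0.25 FPKM. Both libraries numbered 3 stood above the other 4 for 6 of 9 genes by CPM (HLA-B, HLA-C, B2M, TAP1, TAP2 and PSMB9) and for 4 of 9 by FPKM, against 8.38% of all genes by CPM. Near ties between shPTBP1 3 and shPTBP1 1 entered this count, at 221 and 217 CPM for HLA-B and 1122 and 1109 CPM for B2M. The groups of 3 did not overlap for 0 of 9 genes, against 11.9% of all genes.

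With all 6 libraries, 0 of the 9 genes passed an adjusted p under 0.05 in edgeR, where 0.0309% of all genes did. At an unadjusted p under 0.05 the count was again 0 of 9 in edgeR, where 5.69% of all genes passed, and in DESeq2 0 of 9 passed at either threshold. The log2 fold change was positive for 6 genes and negative for 3 (TAP2, PSMB8 and PSMB9), with a median of 0.10 over the 9 genes and -0.013 over all genes tested. Without shControl 3, 8 of 9 were positive with a median of 0.68, against 0.0044 over all genes, and HLA-B, HLA-E and B2M passed the adjusted threshold as higher in shPTBP1. In that fit 0.565% of all genes passed as higher. PTBP1 itself was at -0.098 in the same fit (SE 0.13, adjusted p = 0.774, edgeR). Leaving out any other single library gave 0 calls among the 9.

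**Figure D1:**
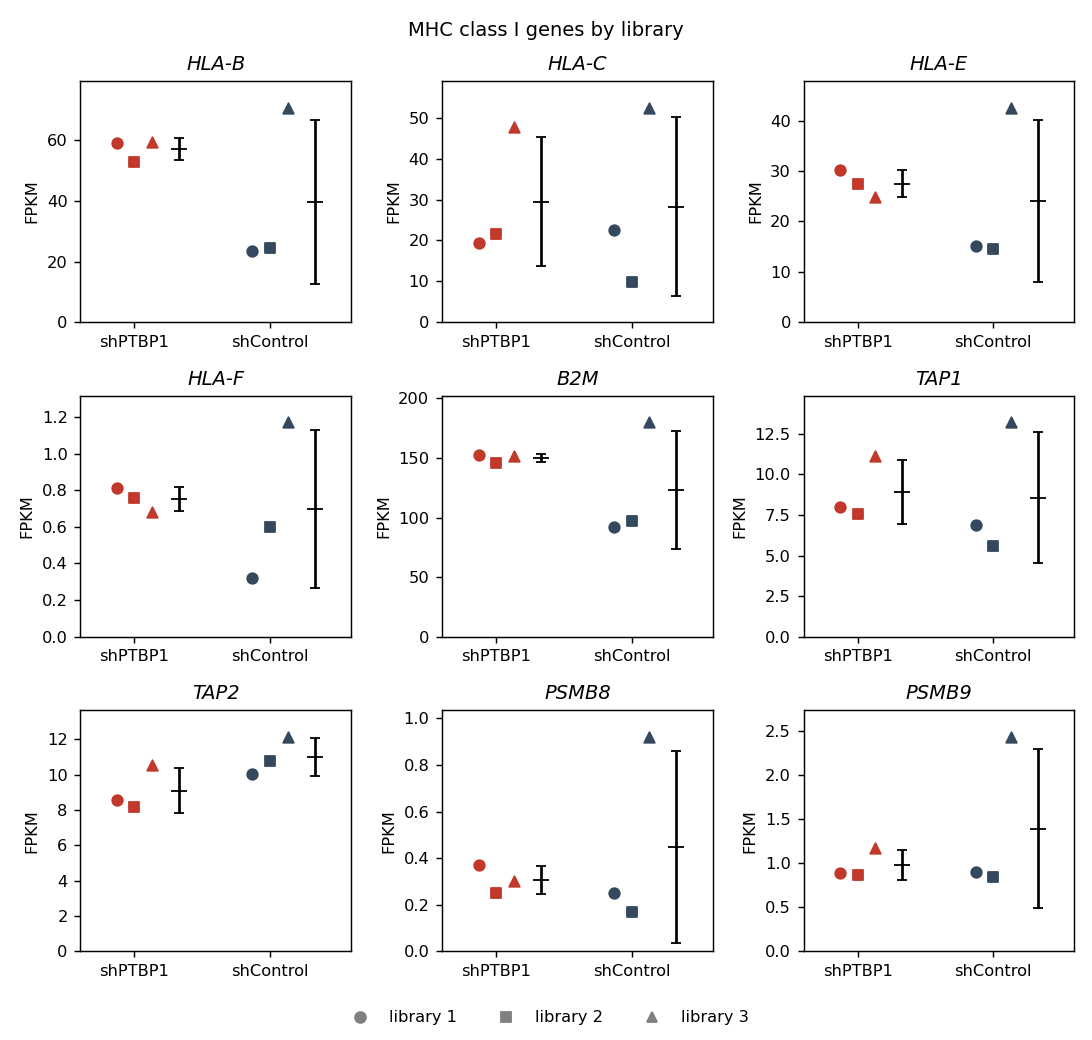
FPKM of the 9 class I genes (vertical axes, each from 0) in the libraries labelled shPTBP1 and shControl, with 1 point per library, the marker giving its number, and the mean with SD (n = 3) beside the points. shControl 3 is the highest point in every panel, and in HLA-B, HLA-E and B2M shControl 1 and 2 lie below the 3 shPTBP1 libraries.

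The heavy chains were examined next. HLA-B (ENSG00000234745), a classical heavy chain, had 59.3, 53.0 and 59.5 FPKM in shPTBP1 1, 2 and 3, against 23.5, 24.4 and 70.8 FPKM in shControl 1, 2 and 3. The shPTBP1 libraries lay close together and between the shControl libraries, of which number 3 was far above the others. The group means were 57.3 ± 3.69 FPKM in shPTBP1 and 39.5 ± 27.0 FPKM in shControl (SD, n = 3 each), with a log2 fold change of 0.57 (SE 0.41, adjusted p = 0.955, edgeR). Without shControl 3 it was 1.27 (SE 0.10, adjusted p = 0.0178, edgeR), and numbers 1 and 2 alone gave 1.24 (SE 0.10, adjusted p = 0.0478, edgeR). HLA-B was thus the only one of the 9 genes to pass in the libraries numbered 1 and 2, where 0.238% of all genes passed as higher in shPTBP1.

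HLA-E, a heavy chain that mainly presents leader peptides of other class I molecules and is read by the NKG2A receptor of natural killer cells, had 30.2, 27.5 and 24.8 FPKM in shPTBP1 1, 2 and 3, against 15.0, 14.5 and 42.5 FPKM in shControl 1, 2 and 3. As with HLA-B, shControl 1 and 2 were below the shPTBP1 libraries and shControl 3 above them. Its log2 fold change was 0.23 (SE 0.40, adjusted p = 0.983, edgeR) over 6 libraries and 0.91 (SE 0.11, adjusted p = 0.0430, edgeR) without shControl 3. Within the libraries numbered 1 and 2 it was 0.97 (SE 0.10), and the adjusted p of 0.0608 in edgeR missed the threshold.

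HLA-C, the other classical heavy chain measured here and a main ligand of killer immunoglobulin-like receptors, had 19.4, 21.5 and 47.7 FPKM in shPTBP1 1, 2 and 3, against 22.5, 9.83 and 52.5 FPKM in shControl 1, 2 and 3. As for 5 other class I genes by CPM, both libraries numbered 3 stood above the other 4. The log2 fold change of HLA-C was 0.10 (SE 0.60, adjusted p = 0.995, edgeR), the widest error among the heavy chains. HLA-F, a non-classical heavy chain, was scarce, with 0.81, 0.76 and 0.68 FPKM in shPTBP1 1, 2 and 3, against 0.32, 0.60 and 1.17 FPKM in shControl 1, 2 and 3. Its log2 fold change was 0.15 (SE 0.43, adjusted p = 0.992, edgeR), and it rested on 114 to 417 estimated counts per library.

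All 4 heavy chain genes lie in the MHC region of chromosome 6. In hg38, HLA-B spans 31269491 to 31357179 on the minus strand, a span that takes in part of HLA-C (31268749 to 31272105, minus strand), HLA-E spans 30489509 to 30494194 and HLA-F spans 29722775 to 29729351, both on the plus strand. On the opposite strand, the HLA-F span overlaps RPL23AP1 (0.68 to 5.56 FPKM) and HLA-F-AS1 (0.73 to 1.70 FPKM). The HLA-B span likewise holds RPL3P2 (15.1 to 19.6 FPKM). Heavy chains are paralogs, and reads from stretches that 2 of them share can be counted to either. Of all 50-base stretches in the longest protein-coding GENCODE transcript of each gene, 2.54% of HLA-B, 6.71% of HLA-C, 5.13% of HLA-E and 1.70% of HLA-F also occurred in a transcript of another gene. These shares count exact matches to reference transcripts only, so they do not bound the uncertainty of single heavy chains. How the authors' counting treated shared reads is not stated.

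**Figure D2:**
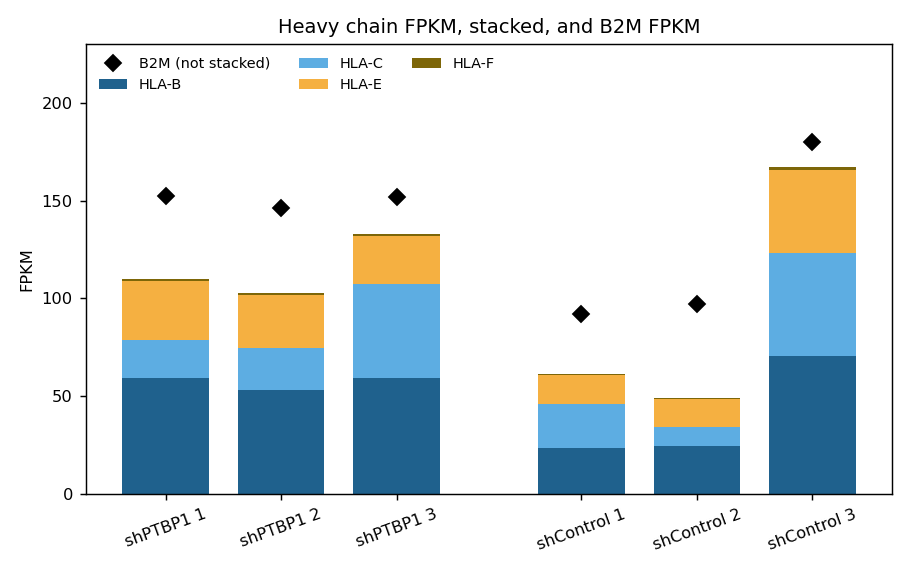
FPKM of HLA-B, HLA-C, HLA-E and HLA-F stacked in 1 bar per library, with the FPKM of B2M as a diamond (vertical axis in FPKM, from 0). The stacks reach 103 to 133 FPKM in the shPTBP1 libraries, against 49.3 to 61.3 FPKM in shControl 2 and 1 and 167 FPKM in shControl 3.

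The FPKM of the 4 heavy chains were also summed, since reads can be split among them, although the sum keeps reads shared with genes outside the 4 and depends on the length of each gene. It was 109.8, 103 and 133 FPKM in shPTBP1 1, 2 and 3, against 61.3, 49.3 and 167 FPKM in shControl 1, 2 and 3. The mean of 115 ± 15.7 FPKM in shPTBP1 lay within the shControl spread of 92.5 ± 64.7 FPKM (SD, n = 3 each). HLA-B made up 54.0%, 51.6% and 44.8% of this sum in shPTBP1 1, 2 and 3, against 38.2%, 49.5% and 42.4% in shControl 1, 2 and 3. HLA-E stood at 0.51, 0.52 and 0.42 of the HLA-B level in shPTBP1, against 0.64, 0.59 and 0.60 in shControl. The groups did not overlap for this ratio, which was computed without a test. Several ratios were computed, and the groups overlapped for all the others. Among single genes tested, the groups did not overlap for 11.9% by CPM.

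The promoters of the class I genes are known to share interferon-responsive and NF-kappa B elements, so their windows were read beside the expression values. RefSeq windows on GRCh38.p14, from 250 bases before to 50 bases after a transcription start, were given for 8 of the 9 genes, with HLA-E not among them. Heavy chain stretches are shown because these 3 genes are paralogs and their windows can be set side by side. Capitals mark CCAAT boxes (CCAAT), the enhancer A kappa B site (GGGATTCCC), the interferon-stimulated response element (ISRE, GAAANNGAA) and IRF half-sites (AANNGAAA), on either strand. Matches of the last 2 overlap each other in part.
HLA-B: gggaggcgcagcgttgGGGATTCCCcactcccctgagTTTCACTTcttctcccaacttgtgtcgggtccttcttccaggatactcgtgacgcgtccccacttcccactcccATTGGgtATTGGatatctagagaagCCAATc
HLA-C: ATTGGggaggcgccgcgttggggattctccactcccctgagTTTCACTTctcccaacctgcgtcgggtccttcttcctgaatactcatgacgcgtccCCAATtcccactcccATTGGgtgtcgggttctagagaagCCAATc
HLA-F: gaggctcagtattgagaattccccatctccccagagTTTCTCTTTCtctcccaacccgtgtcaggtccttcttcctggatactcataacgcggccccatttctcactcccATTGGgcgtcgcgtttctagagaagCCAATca
These stretches lie on GRCh38.p14 at chr6:31357230-31357371 (minus strand) for HLA-B, chr6:31272143-31272284 (minus strand) for HLA-C and chr6:29723242-29723383 (plus strand) for HLA-F. The kappa B letters were found in HLA-B alone among the 8 genes, and 0.384% of 35116 RefSeq windows hold them. The ISRE letters were found in HLA-F but in neither HLA-B nor HLA-C, both of which held the IRF half-sites.

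The light chain resembled HLA-B and HLA-E in its order of libraries. B2M had 152, 146 and 152 FPKM in shPTBP1 1, 2 and 3, against 91.8, 97.3 and 179.8 FPKM in shControl 1, 2 and 3. The shPTBP1 libraries differed from one another by less than those of any other class I gene did in proportion to their mean, and they lay between shControl 1 and 2 on one side and shControl 3 on the other. The mean was 150.0 ± 3.49 FPKM in shPTBP1 and 123 ± 49.3 FPKM in shControl (SD, n = 3 each), with a log2 fold change of 0.32 (SE 0.24, adjusted p = 0.957, edgeR). Without shControl 3 it was 0.68 (SE 0.07, adjusted p = 0.0349, edgeR), and numbers 1 and 2 alone gave 0.67 (SE 0.08, adjusted p = 0.0731, edgeR).

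B2M lies on chromosome 15, apart from the MHC region, at 44711487 to 44718877 of hg38 on the plus strand. Its longest protein-coding GENCODE transcript shared no 50-base stretch with a transcript of another gene. The read sharing described for the heavy chains was thus not found for B2M, but exact matches to reference transcripts cannot exclude it. B2M stood at 1.39, 1.42 and 1.14 times the summed heavy chains in shPTBP1 1, 2 and 3, against 1.50, 1.97 and 1.08 times in shControl 1, 2 and 3, so the ratio was lowest where the heavy chains were highest in each group. The B2M promoter stretch is shown for its run of interferon-type letters, with 2 ISRE and 2 half-site matches in capitals and a CCAAT box near the end.
B2M: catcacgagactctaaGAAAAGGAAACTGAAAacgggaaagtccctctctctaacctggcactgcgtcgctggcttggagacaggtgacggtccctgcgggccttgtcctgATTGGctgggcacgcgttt
It lies at chr15:44711357-44711486 of GRCh38.p14 (plus strand).

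The peptide transporter genes did not follow each other. TAP1 had 8.02, 7.58 and 11.2 FPKM in shPTBP1 1, 2 and 3, against 6.90, 5.62 and 13.2 FPKM in shControl 1, 2 and 3, and its log2 fold change was 0.09 (SE 0.32, adjusted p = 0.995, edgeR). TAP2 had 8.56, 8.16 and 10.6 FPKM in shPTBP1 1, 2 and 3, against 10.02, 10.8 and 12.1 FPKM in shControl 1, 2 and 3. TAP2 had the narrowest span among the 9 genes, and only shPTBP1 3 reached into the shControl range. Its log2 fold change was -0.24 (SE 0.14, adjusted p = 0.953, edgeR), -0.18 without shControl 3 (adjusted p = 0.594, edgeR) and -0.31 on numbers 1 and 2 alone (adjusted p = 0.218, edgeR). TAP1 without shControl 3 was at 0.53 (adjusted p = 0.298, edgeR).

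Per unit of TAP2, TAP1 stood at 0.94, 0.93 and 1.06 in shPTBP1 1, 2 and 3, against 0.69, 0.52 and 1.09 in shControl 1, 2 and 3. The ratio was thus lowest in shControl 1 and 2, and the groups overlapped through shControl 3. Both genes lie on the minus strand of chromosome 6 in hg38, TAP1 at 32845209 to 32853978 and TAP2 at 32821833 to 32838739. TAP2 shared 35.8% of its 50-base stretches with the overlapping gene AL669918.1, so that its counts could be split, and TAP1 shared 1.07%.

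The immunoproteasome subunits were scarce, as was HLA-F. PSMB8, the inducible catalytic subunit that takes the place of PSMB5, had 0.37, 0.25 and 0.30 FPKM in shPTBP1 1, 2 and 3, against 0.25, 0.17 and 0.92 FPKM in shControl 1, 2 and 3. PSMB9, which takes the place of PSMB6, had 0.89, 0.87 and 1.17 FPKM in shPTBP1 1, 2 and 3, against 0.90, 0.84 and 2.43 FPKM in shControl 1, 2 and 3. For both genes shControl 3 was at least 2 times as high as any other library. The log2 fold change was -0.50 (SE 0.61, adjusted p = 0.980, edgeR) for PSMB8 and -0.48 (SE 0.43, adjusted p = 0.970, edgeR) for PSMB9. Without shControl 3 both turned positive, at 0.55 (adjusted p = 0.468, edgeR) for PSMB8 and 0.17 (adjusted p = 0.764, edgeR) for PSMB9. PSMB8 rested on 64 to 268 and PSMB9 on 249 to 666 estimated counts per library.

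The constitutive counterparts were far more abundant. PSMB8 stood at 0.65%, 0.29% and 0.40% of the PSMB5 level in shPTBP1 1, 2 and 3, against 0.32%, 0.17% and 1.08% in shControl 1, 2 and 3. PSMB9 stood at 1.65%, 1.60% and 1.86% of PSMB6 in shPTBP1, against 1.13%, 1.24% and 4.28% in shControl. PSMB10, the third inducible subunit and no member of the set, stood at 3.13%, 2.48% and 2.53% of its counterpart PSMB7 in shPTBP1, against 2.29%, 1.65% and 3.22% in shControl. In all 6 libraries each inducible subunit was thus below 5% of the constitutive one by FPKM, and for all 3 pairs the highest ratio was that of shControl 3.

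**Figure D3:**
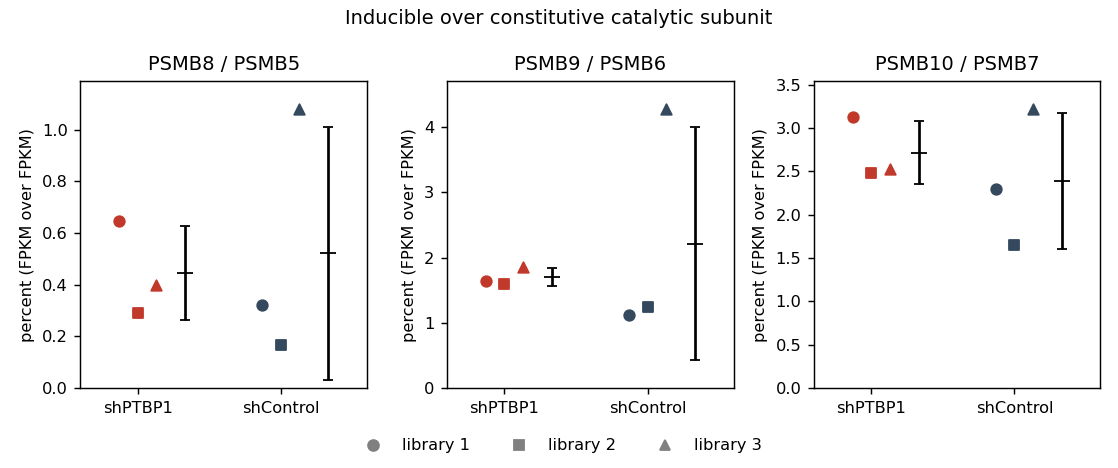
FPKM of each inducible proteasome subunit as a percent of its constitutive counterpart (vertical axes, each from 0) in the libraries labelled shPTBP1 and shControl, with 1 point per library and the mean with SD (n = 3) beside the points. The highest value in each panel is that of shControl 3, at 1.08% for PSMB8, 4.28% for PSMB9 and 3.22% for PSMB10.

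TAP1 and PSMB9 stand head to head on chromosome 6. Their RefSeq starts, 32853704 for TAP1 on the minus strand and 32854192 for PSMB9 on the plus strand, are 488 bases apart. In hg38 the deposited span of PSMB9 (32844136 to 32859851) overlaps TAP1 and PSMB8 (32840717 to 32844703, minus strand), and 12.1% of the 50-base stretches of PSMB9 also occurred in PSMB8-AS1, which was at 0.05 to 0.54 FPKM. The libraries marked the strand, but whether counting used it is not given, and reads of these overlapping genes may be mixed. The stretches below are shown because TAP1, TAP2 and PSMB8 hold the interferon-type letters in close repeats, marked in capitals together with an interferon-gamma-activated site (GAS, TTCNNNGAA) in PSMB8.
TAP1: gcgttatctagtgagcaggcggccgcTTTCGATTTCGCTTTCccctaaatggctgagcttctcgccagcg
TAP2: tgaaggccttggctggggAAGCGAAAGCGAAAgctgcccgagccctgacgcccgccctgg
PSMB8: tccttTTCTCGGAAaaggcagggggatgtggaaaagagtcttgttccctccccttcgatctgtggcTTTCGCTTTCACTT
They lie at chr6:32853795-32853864 for TAP1, chr6:32838760-32838819 for TAP2 and chr6:32844038-32844117 for PSMB8 on GRCh38.p14, all on the minus strand. The PSMB9 window held neither the ISRE letters nor the half-sites. Over the 8 genes with a window, ISRE letters were found in 5, IRF half-sites in 7, GAS letters in 2, CCAAT boxes in 6 and the cyclic AMP response element (TGACGTCA) in 0. Of all 35116 windows, 8.11% hold ISRE letters, 22.8% half-sites, 7.66% GAS letters, 34.6% a CCAAT box and 1.85% the cyclic AMP response element. A match describes the letters of the window and is not evidence of binding.

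**Figure D4:**
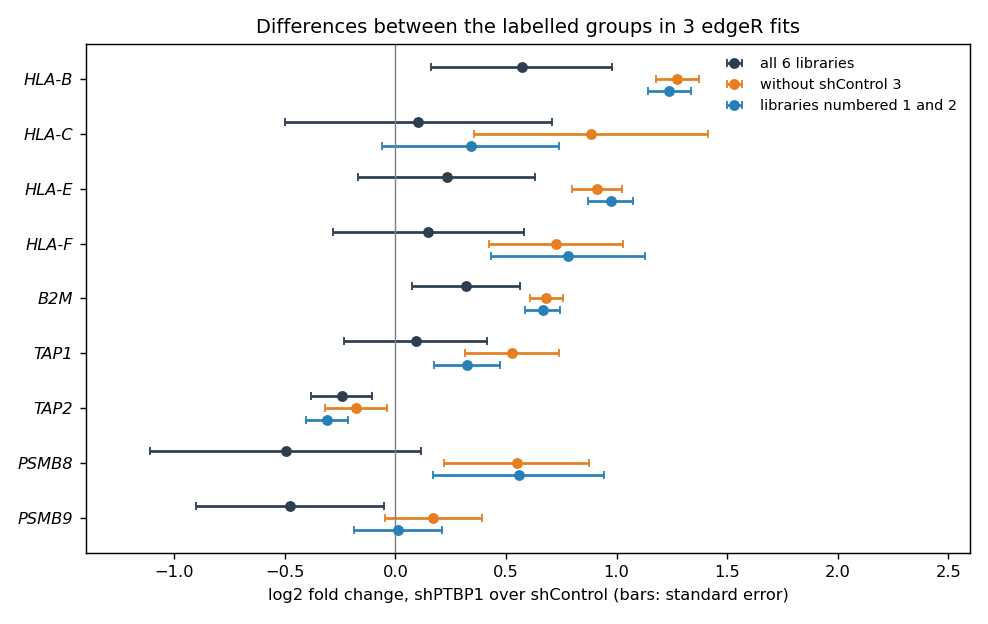
Log2 fold change of shPTBP1 over shControl for the 9 class I genes in 3 edgeR fits, on all 6 libraries, without shControl 3, and on the libraries numbered 1 and 2 (horizontal axis, bars are standard errors). HLA-B moves from 0.57 to 1.27 and 1.24 across these fits, while TAP2 stays between -0.31 and -0.18.

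Whether the difference between the labels itself differed between number 3 and numbers 1 and 2 was tested with an interaction term in edgeR. Each arm holds 1 library numbered 3, which is assumed to vary like the others. The fold change of number 3 minus that of numbers 1 and 2 was -1.42 on the log2 scale for HLA-B (adjusted p = 0.102, edgeR), -1.68 for HLA-E (adjusted p = 0.0953, edgeR) and -0.84 for B2M (adjusted p = 0.140, edgeR). It was -2.10 for PSMB8 and -1.001 for PSMB9, and 0 of 9 genes passed the adjusted threshold, which 0.0103% of all genes did, although 5 of 9 had an unadjusted p under 0.05 (edgeR), against 17.3% of all genes. shPTBP1 3 was below shControl 3 for 9 of 9 genes, an order held by 50.5% of all genes.

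Blood-cell transcripts differed along the same library numbers and not along the labels. HBB, the beta chain of adult hemoglobin, had 345, 306 and 0.36 FPKM in shPTBP1 1, 2 and 3, against 519, 329 and 0.36 FPKM in shControl 1, 2 and 3. Of the 22 leukocyte markers, 16 were listed at 0 in shPTBP1 3 and 14 in shControl 3. Both libraries numbered 3 carried few of these transcripts. In both of them 6 of 9 class I genes by CPM, and 4 of 9 by FPKM, were higher than in the other 4 libraries. For HLA-B and B2M this order by CPM was a near tie with shPTBP1 1. HLA-B passed the test within numbers 1 and 2, where all 4 libraries carried these transcripts but in unequal amounts. The summed FPKM of the leukocyte markers was 18.7 and 16.9 in shPTBP1 1 and 2, against 28.7 and 17.9 in shControl 1 and 2. Blood cells also express class I genes, and the part of their RNA in the class I values was not tested.

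**Figure D5:**
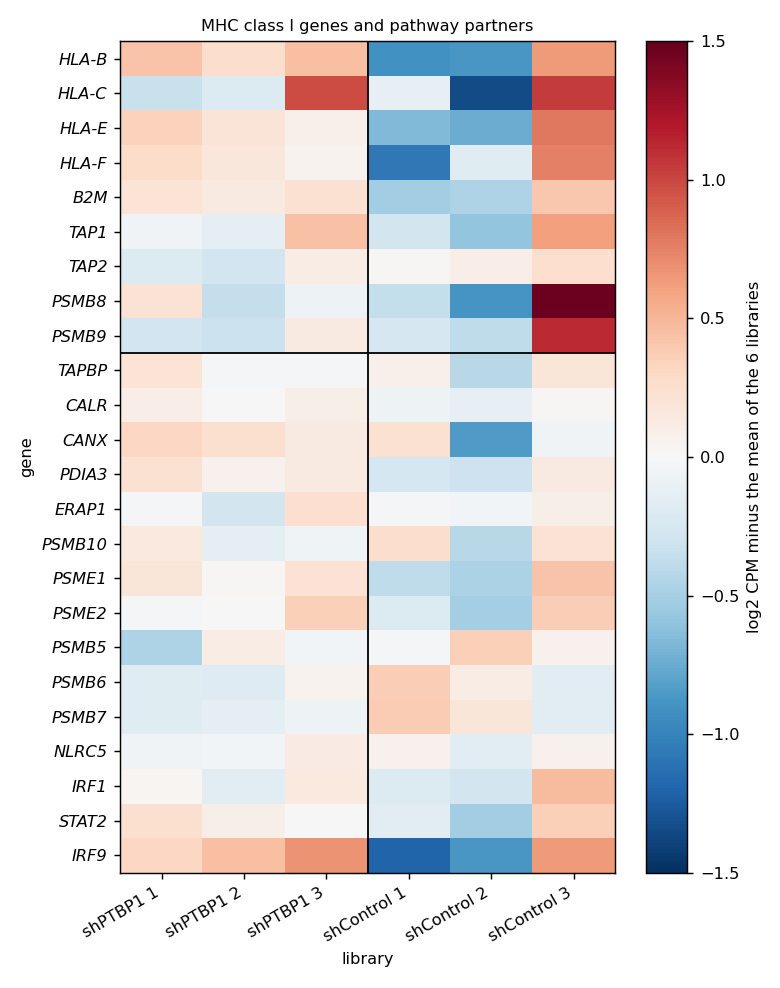
Log2 CPM of the 9 class I genes (above the line) and 15 pathway partners (below it) in each library, each gene centred on its mean over the 6 libraries (color scale from -1.5 to 1.5). Each class I row has its highest value in shControl 3, up to 1.47 for PSMB8 and 1.12 for PSMB9, whereas PSMB6 and PSMB7 are highest in shControl 1.

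The partners of the pathway were then compared. Of 7 loading genes, 0 were called by edgeR and 0 reached an unadjusted p under 0.05, with 4 positive and 3 negative log2 fold changes and a median of 0.09. TAPBP, the tapasin that bridges TAP and the heavy chain, had 15.7, 13.5 and 13.2 FPKM in shPTBP1 1, 2 and 3, against 14.3, 10.4 and 16.0 FPKM in shControl 1, 2 and 3. ERAP1, which trims peptides in the endoplasmic reticulum, had a log2 fold change of -0.0049 (SE 0.17), and ERAP2, its relative, was listed at 0.15 to 0.30 FPKM. The loading genes thus spanned less than HLA-B or HLA-E between shControl 3 and shControl 1 and 2.

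Of 5 further genes of the inducible proteasome and its activators, 0 passed and 0 had an unadjusted p under 0.05 in edgeR. PSMB10 had 2.35, 1.94 and 2.01 FPKM in shPTBP1, against 2.54, 1.62 and 2.55 FPKM in shControl (log2 fold change -0.06, SE 0.25). PSME1 and PSME2, named after their values were seen, had the order of HLA-B, with shControl 3 highest and shControl 1 and 2 lowest. PSME1 had 44.95, 40.44 and 45.16 FPKM in shPTBP1, against 30.39, 28.95 and 55.04 FPKM in shControl. Its log2 fold change without shControl 3 was 0.57 (SE 0.10, adjusted p = 0.0836, edgeR). PSME3 and POMP were instead lowest in shControl 3. Beside the mixed signs of the class I genes over the 6 libraries, the 14 constitutive core subunits leaned towards lower values in shPTBP1. Their log2 fold change was negative for 13 of 14, with a median of -0.17, and without shControl 3 for 14 of 14, with a median of -0.32, but 0 passed the adjusted threshold in either fit. PSMA4 was the one with an unadjusted p under 0.05 (-0.33, SE 0.13, adjusted p = 0.867, edgeR). PSMB5, PSMB6 and PSMB7 were at -0.26, -0.23 and -0.28.

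The regulators showed the same library order in part. NLRC5, the transactivator of class I promoters, had 0.97, 0.99 and 1.08 FPKM in shPTBP1 1, 2 and 3, against 1.06, 0.91 and 1.09 FPKM in shControl 1, 2 and 3, and so varied little. IRF1, an activator that binds interferon-type elements, had 1.28, 1.12 and 1.37 FPKM in shPTBP1, against 1.09, 1.05 and 1.81 FPKM in shControl. Of 23 regulators tested, 0 passed the adjusted threshold over the 6 libraries in edgeR. IRF9, a DNA-binding factor of the type I interferon response, was named after its values were seen, as the one regulator to pass without shControl 3. It had 3.80, 4.23 and 4.84 FPKM in shPTBP1, against 1.33, 1.71 and 4.95 FPKM in shControl, with a log2 fold change of 0.72 over 6 libraries (adjusted p = 0.953, edgeR) and 1.51 without shControl 3 (adjusted p = 0.0431, edgeR).

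A list of 34 interferon-induced genes outside the class I set had 30 positive log2 fold changes and a median of 0.65. Over the 6 libraries edgeR called 0 of them. At an unadjusted p under 0.05 there were 3 (IFI35, IFIT3 and IFIH1), where 5.69% of all genes passed. For 30 of the 34, all 3 shPTBP1 libraries lay above shControl 1 and 2, an order held by 19.7% of all genes. For 11 of the 34 shControl 3 was the highest library, against 9 of 9 class I genes and 23.4% of all genes. Both libraries numbered 3 stood above the other 4 for 20 of the 34 by CPM, against 6 of 9 class I genes and 8.38% of all genes. The fit that left out shControl 3 called 10 interferon-induced genes, all as higher in shPTBP1, against 0.565% of all genes.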

How the data were processed

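Poly(A) RNA of 6 MHCC97H libraries was sequenced by the authors, whose notes name HISAT2 2.2.1, StringTie, cutadapt 1.9 and FastQC with the build hg38, without settings. The authors deposited FPKM and counts for 58825 genes, and libraries were grouped by their titles. The deposited counts were used as estimated counts after rounding, because 32.5% to 34.4% of those from 1 to 40 were multiples of 4 in each library, so the depth in fragments is unknown. Reads of heavy chain alleles unlike the reference may be lost in alignment, which was not tested.

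Counts were tested over all genes with the edgeR 4.0.16 quasi-likelihood F test (R 4.3.3), with TMM scaling and filterByExpr, with Benjamini-Hochberg adjusted p-values called under 0.05. The standard error was the absolute log2 fold change divided by the square root of F. The steps were tested on simulated data. Levels and ratios were read from FPKM. Alternatives were DESeq2 1.42.0, limma 3.58.1 on FPKM in log2 with a pseudocount of 1 or 0.1, for genes averaging 1 FPKM or more or for all above 0, other scalings, thresholds and filters, a replicate block, a number 3 covariate, the libraries numbered 1 and 2, and leaving out each library. The interaction fit, the counts of library orders and the IRF half-site letters were added after the data were seen. Python 3.11.15 with pandas 2.3.3, numpy 2.4.6 and matplotlib 3.10.9 was used. The members and lists were chosen with earlier results of these data known. Named genes were PTBP1, HBB, every member, genes overlapping one, set partners and regulators, those of the loading, inducible proteasome and regulator lists at an unadjusted p under 0.05, and up to 4 of the smallest p of each other list. Shared stretches came from GENCODE 29 transcripts and promoter windows from RefSeq. A regulator named by this rule is not reported here, and splicing was not analysed here.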

Additional observations from a re-analysis of the deposited data

How the results depend on the processing

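The count of genes called over the whole table, 6, was 165 with DESeq2, 1 with limma on all genes above 0, 0 with a replicate block, 3 with number 3 as a covariate, 63 on the libraries numbered 1 and 2 only, 1104 at an unadjusted p under 0.05, and 2 to 136 when each library was left out. The class I genes called were 1 (HLA-B, at 1.24) on the libraries numbered 1 and 2 only and 0 to 3 when each library was left out, with 0 under every other alternative. The class I genes lower in shPTBP1 were 1 on the libraries numbered 1 and 2 only and 1 to 7 when each library was left out, and those higher were 2 to 8. On the libraries numbered 1 and 2 only, PSMB8 turned to 0.56 and PSMB9 to 0.013. With each library left out in turn, the log2 fold change ranged from 0.31 to 1.27 for HLA-B, -0.44 to 0.88 for HLA-C, -0.026 to 0.91 for HLA-E, -0.19 to 0.73 for HLA-F, 0.16 to 0.68 for B2M, -0.14 to 0.53 for TAP1, -0.37 to -0.16 for TAP2, -0.88 to 0.55 for PSMB8 and -0.73 to 0.17 for PSMB9. The sign turned without shControl 1 for HLA-C, HLA-E, HLA-F and TAP1, without shControl 2 for HLA-C, HLA-E and TAP1, without shPTBP1 3 for HLA-C and TAP1, and without shControl 3 for PSMB8 and PSMB9. The cause of these changes was not tested. Under the other scalings, filters and thresholds and the limma fits every class I gene kept its direction and missed the adjusted threshold, while HLA-F and PSMB8 were not tested by limma at a mean of at least 1 FPKM. Same-numbered libraries deviated together with correlations of -0.0091, 0.16 and 0.083 across genes for numbers 1, 2 and 3. Libraries of unlike number gave -0.14 to 0.047, so numbers 2 and 3 were above this range and number 1 was within it. The numbers were not taken as pairs in the main fit, and the replicate block called 0 class I genes. HLA-F, PSMB8 and PSMB9 rest on the fewest estimated counts of the 9 genes, and their standard errors of 0.43, 0.61 and 0.43 leave differences of that size undetected. Genes with more counts had similar errors, at 0.60 for HLA-C (2514 to 10777 estimated counts), 0.41 for HLA-B and 0.40 for HLA-E. The difference of 0.57 for HLA-B was not called either.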

Other observations

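Relatives of the class I heavy chains were also examined. Of 11 class I-like genes, 9 were tested, 0 passed the adjusted threshold and 0 had an unadjusted p under 0.05 in edgeR, with a median log2 fold change of -0.03. MICA, a stress ligand of the NKG2D receptor, had 52.9, 50.9 and 42.8 FPKM in shPTBP1 1, 2 and 3, against 47.1, 44.3 and 52.0 FPKM in shControl 1, 2 and 3. MR1, which presents microbial vitamin metabolites, had 3.42, 3.28 and 3.35 FPKM in shPTBP1, against 3.03, 3.90 and 4.18 FPKM in shControl. HFE, a regulator of iron uptake, varied more, with 2.27, 6.93 and 4.76 FPKM in shPTBP1, against 2.34, 4.95 and 4.80 FPKM in shControl. ULBP2, another NKG2D ligand, had 0.86, 0.72 and 0.77 FPKM in shPTBP1, against 1.19, 0.47 and 1.55 FPKM in shControl.

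Class II genes, the marks of antigen-presenting cells, were scarce. The 12 genes summed to 5.54, 4.63 and 3.34 FPKM in shPTBP1 1, 2 and 3, against 5.24, 4.02 and 5.82 FPKM in shControl 1, 2 and 3. HLA-DRA, named after its values were seen, had 1.08, 0.82 and 0 FPKM in shPTBP1, against 1.84, 1.26 and 0 FPKM in shControl, and was thus listed at 0 in both libraries numbered 3, the libraries with the fewest blood-cell transcripts. HLA-DMA, also named after its values were seen, had 3.43, 2.64 and 2.68 FPKM in shPTBP1, against 2.25, 1.86 and 5.02 FPKM in shControl, the same order as HLA-B and B2M with shControl 3 highest and shControl 1 and 2 lowest. HLA-DMA lies in the MHC region and helps class II molecules take up peptides.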
